A study of Mus musculus with 8 samples.

Results

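Human STING and its N154S mutant were compared after transfected DNA, in mouse embryonic fibroblasts (MEFs) that lack the endogenous gene for STING. The comparison holds 2 of the 8 arrays of the series, chosen by their titles: STING-/- MEFs reconstituted with N154S and with hSTING, each exposed for 9 h to dsDNA (double-stranded DNA) carried into the cells by Lipofectamine. The other arrays are the control cultures of the same lines and both cultures of the lines with the empty pBabe vector and with the R284S variant. All lines share the STING deletion and are labelled as primary MEFs, and the labels do not say whether a line is 1 population or several, or how it was selected. There was 1 array a side and hence no replicates, so a difference between 2 arrays has no replicate check and no p-value is given for it. The labels do not say whether control cultures received Lipofectamine without DNA.

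STING is an adaptor of the endoplasmic reticulum that binds cGAMP, the messenger made by cGAS when DNA appears in the cytosol. Bound STING moves to the Golgi, where the kinase TBK1 phosphorylates the transcription factor IRF3, and IRF3 with NF-kB switches on interferon beta, chemokines and cytokines. Secreted interferon then acts through its receptor on the interferon-stimulated response element (ISRE) of many antiviral genes, here called interferon-stimulated genes. N154S is one of the substitutions that cause SAVI, an autoinflammatory disease in which STING signals without DNA. Setting the mutant against the normal protein after DNA shows which genes meet at one level once both are stimulated and which do not.

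Values are log2 array signals, and a difference is N154S minus hSTING on that scale. A gene was counted as apart if the difference was 1 or more (2-fold) and the brighter array was at or above the median of the named genes on that array, 4.42 to 4.47. Across all 22180 genes the differences with DNA had a median of 0.01, with 95% of genes between -0.69 and 0.62. Fibroblast markers were bright on both DNA arrays, at 7.26 to 12.65 in hSTING and 7.04 to 12.58 in N154S cells over 11 genes. With DNA 10 of the 11 were lower in N154S cells, against 10648 of all 22180 genes. The 7 macrophage markers read 2.67 to 6.07 and 2.54 to 5.96, with Ptprc, the pan-leukocyte marker, at 2.67 and 2.54. The 4 T cell markers read at most 4.41 and the 2 B cell markers at most 4.12. Of 12 reference genes, 12 differed by less than 0.5 with DNA, with a median of 0.18. The highest value on any array was 13.22.

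With DNA, 39 genes were 2-fold or more higher in N154S than in hSTING cells (0.176% of all genes) and 124 were lower (0.559%). In control cells the balance was the other way, with 118 higher (0.532%) and 49 lower (0.221%). Both comparisons found about as many genes apart, 163 with DNA (0.735%) and 167 without (0.753%), yet 24 genes were apart in the same direction in both (0.108%). Pearson's r between the control difference and the DNA difference was 0.14 across genes, which share arrays and are not independent replicates. The 2 differences have no array in common.

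**Figure D1:**
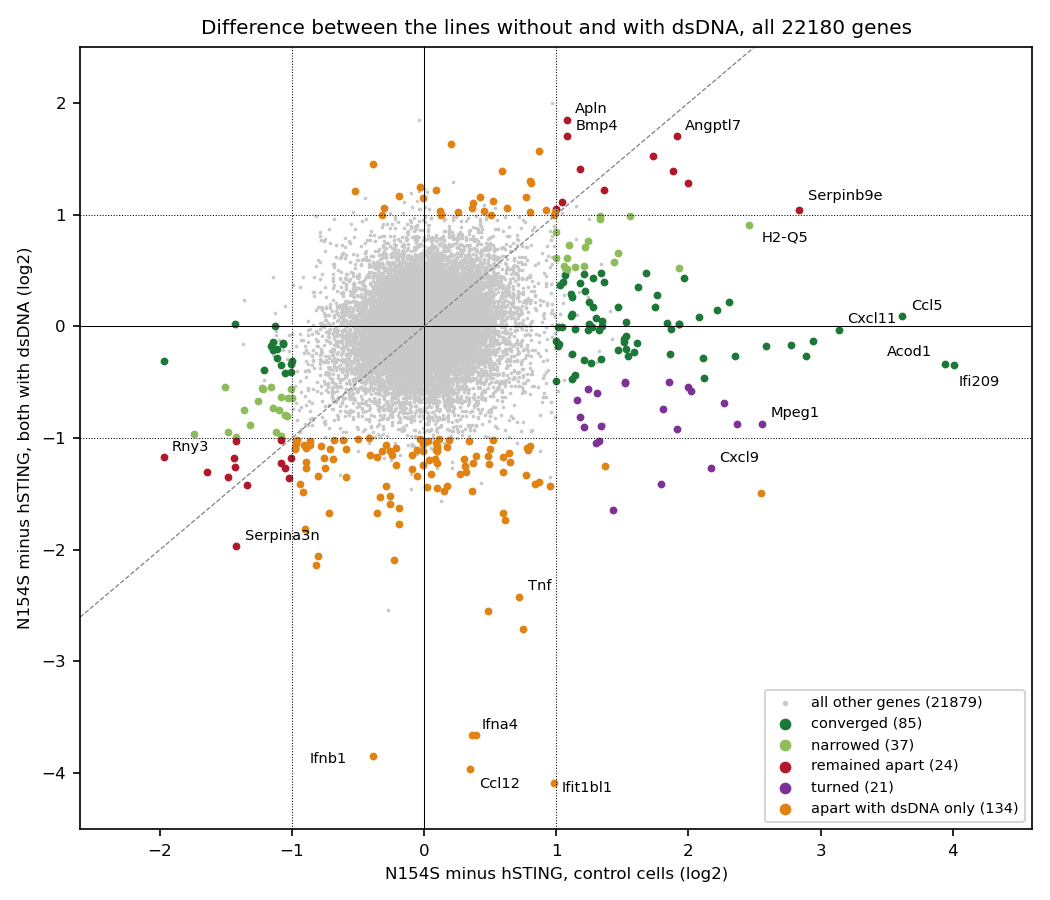
Each point is 1 of 22180 genes, with the log2 difference N154S minus hSTING in control cells on the x axis and with dsDNA on the y axis, from single arrays. Dotted lines mark 2-fold, the dashed line marks equal differences, and colours give the 5 classes used in the text. Genes to the right (N154S higher in control cells) lie mostly near 0 or below it with DNA, and Ifnb1, Ifna4, Ccl12 and Ifit1bl1 lie lowest, with control differences under 1.

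The 167 genes apart in control cells were classed by their difference with DNA. Of these, 85 (50.9% of the 167, 0.383% of all genes) converged, meaning that the 2 lines differed by less than 0.5 with DNA. A further 37 (0.167%) narrowed to between 0.5 and 1 in the same direction, 17 with N154S higher (0.0766%) and 20 with N154S lower (0.0902%), 24 remained apart, and 21 (0.0947%) turned, with the opposite line higher by 0.5 or more. Over all genes, 89.1% differed by less than 0.5 with DNA. Conversely, 134 genes (0.604%) were apart with DNA while not counted in control cells, 2 of them because the control signals were too dim. These 2, Ifi208 and Mx1, read higher in N154S in control cells and lower with DNA. In control cells the difference was under 0.5 for 58 of the 106 lower in N154S with DNA and 15 of the 28 higher. The rest already differed by 0.5 or more, as Col6a1 at -0.98 in control cells and -1.10 with DNA. Below, apart with DNA and not before means not counted in control cells, and not that the gap was absent there. A class rests on 4 single arrays. Genes picked for a large control difference will on average differ less on any second pair of arrays, and that part of the convergence cannot be told apart from a response to DNA.

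The genes that met at one level with N154S higher before included many of the interferon response, 35 of 69 being in the interferon-stimulated, GTPase, Ifi200, chemokine or class I lists. Those lists measure 50, 11, 9, 11 and 19 of the 22180 genes. They were chosen with earlier results of these data known, so the overlap adds no support. All 69 converged genes with N154S higher in control cells (0.311%) read higher with DNA than without in hSTING cells, and 62 of them were 2-fold or more higher. In N154S cells 19 of the 69 were 2-fold or more higher with DNA. The median gain was 2.20 in hSTING and 0.59 in N154S cells, and in vector cells it was 0.34. The class rule makes the gain larger in hSTING than in N154S cells for all 69, so that order adds no support. The median levels with DNA were 8.59 in hSTING and 8.53 in N154S cells, and 57 of the 69 ended higher in DNA-treated hSTING cells than in N154S control cells.

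Ccl5, a chemokine that attracts T cells, read 4.74, 8.60, 12.22 and 13.01 in control vector, hSTING, N154S and R284S cells. With DNA the same lines read 4.89, 12.70, 12.79 and 13.09. The gap between N154S and hSTING thus went from 12.3-fold to 1.06-fold, and all 3 STING lines stood far above vector cells. These signals lay close to the highest value on the arrays, where a difference can be compressed. Some converged genes had lower signals, and whether compression added to the convergence was not tested. Ifi209, a DNA-binding protein of the Ifi200 family, went from 4.13 to 9.20 in hSTING and from 8.14 to 8.85 in N154S cells. Oas1g, a sensor of double-stranded RNA, read 6.31 and 8.24 in the controls and 8.85 and 8.87 with DNA.

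Acod1, which makes the antimicrobial metabolite itaconate, had the largest gain with DNA among the converged genes named here. In hSTING cells it went from 3.24 to 10.76 and in N154S cells from 7.18 to 10.42, while vector cells read 3.63 and 3.91. Cxcl11, named for a T cell attractant and annotated as a transcribed pseudogene, read 4.14 and 7.28 in the controls and 9.89 and 9.86 with DNA. Its relative Cxcl10 read 8.98 and 11.33, then 12.86 and 12.59. Vector cells also had more Cxcl10 with DNA, at 8.21 against 5.13, which was below both STING lines. Rsad2, the antiviral enzyme viperin, read 6.80 and 9.69, then 11.51 and 11.24. The mitochondrial nucleotide kinase Cmpk2, the ubiquitin ligase Neurl3 and the antiviral protein Oasl1 had control differences of 2.59, 2.78 and 2.94 and DNA differences of -0.18, -0.17 and -0.13.

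**Figure D2:**
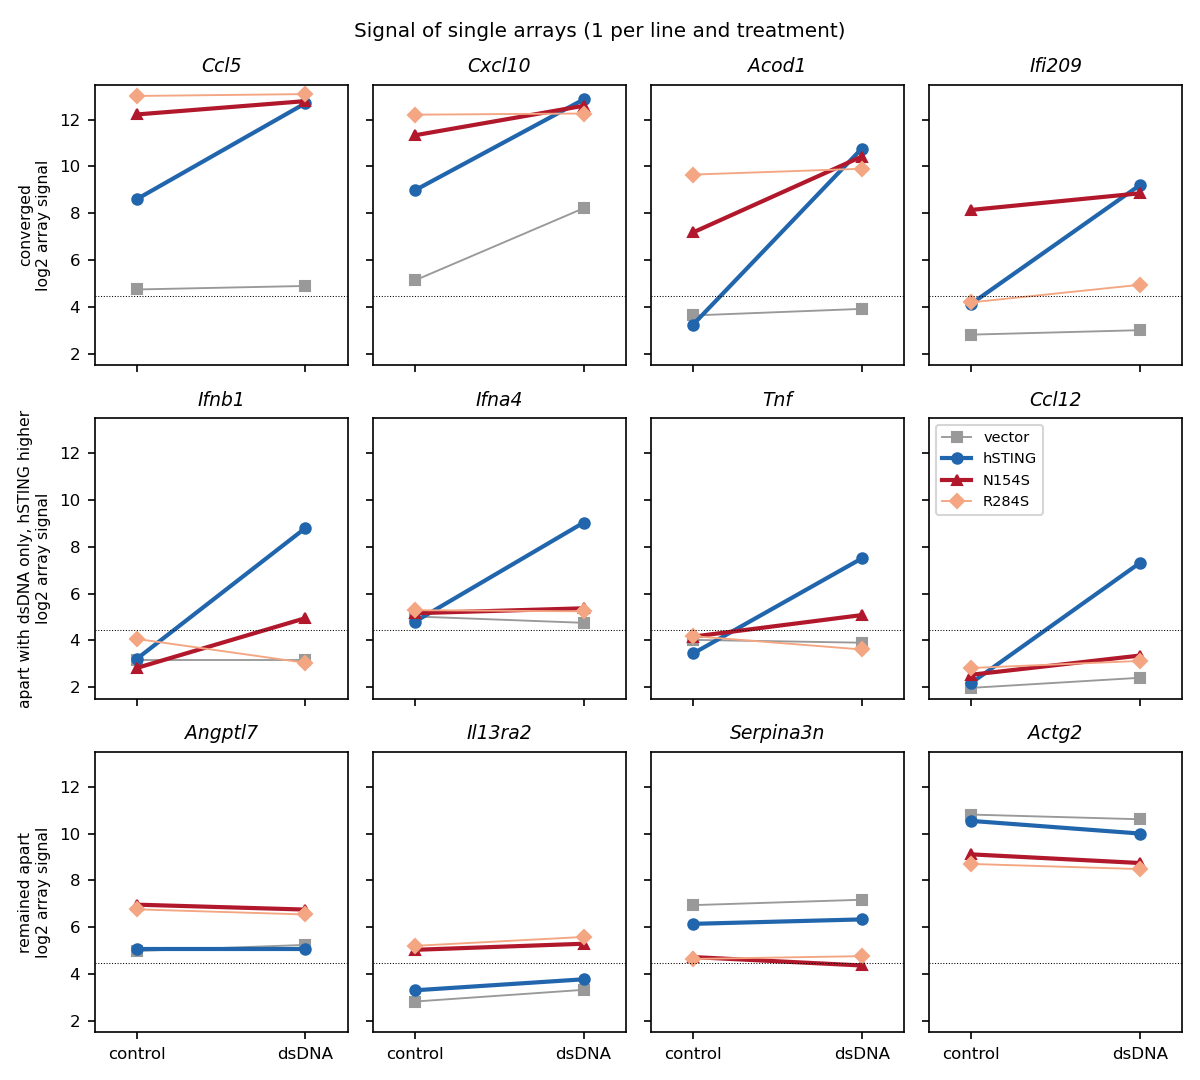
Log2 signal of single arrays for 12 genes in control and dsDNA cultures, 1 line per construct, with the dotted line near the median of the named genes. In the top row the hSTING and N154S lines meet with DNA, at 12.70 and 12.79 for Ccl5. In the middle row hSTING ends above the other lines, at 8.80 against 4.95 in N154S for Ifnb1. In the bottom row the gap stays, as for Angptl7 at 5.05 and 6.75.

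In the list of antiviral interferon-stimulated genes, nearly all of the median difference was gone with DNA. Of 50 measured, 48 read higher in N154S in control cells, 23 of them by 2-fold or more, with a list median of 0.95. With DNA the median was -0.08 against 0.01 over all genes, 0 were 2-fold higher and 1 was 2-fold lower. Within 0.5 of each other lay 44 of the 50, a share near the 89.1% of all genes. Of the 24 apart in control cells, 21 converged, 2 narrowed (Trim30a and, lower in N154S in both treatments, Ifi27) and 1 turned (Phf11b). Their DNA levels were high in both lines, with list medians of 9.06 in hSTING and 8.93 in N154S cells. The transcription factor Irf7, which amplifies interferon production, stood at 11.02 in N154S cells with and without DNA, and hSTING cells went from 9.72 to 10.95. The ubiquitin-like protein Isg15 was high throughout, at 10.74 and 11.05 in the controls and 11.46 and 11.27 with DNA. The exception at 2-fold in the list was Mx1, named for an antiviral GTPase and annotated as a transcribed pseudogene. It read 3.08 and 4.45 in the controls and 7.22 and 5.97 with DNA. The list was chosen with earlier results known and does not hold every relative of its members. Of those outside it, Ifit1bl1 and Phf11a differed by -4.09 and -1.47 with DNA, and the rest were not counted. Near-identical family members, such as Ifit3 and Ifit3b or the Oas1 and Ifi200 genes, can share probe signal, so their single values are uncertain.

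The interferon-induced GTPases, which attack vacuoles that hold pathogens, also came closer. Of 11 measured, 7 were 2-fold higher in N154S control cells (median 1.35), while with DNA 0 were higher and 1 was lower (median -0.14). With DNA 7 of the 11 lay within 0.5, a smaller share than the 89.1% of all genes. Gbp7 read 10.08 in both lines, from 7.47 in hSTING and 8.82 in N154S control cells. Iigp1 read 6.98 and 9.09, then 10.68 and 10.40. Gbp9 and Gbp10 turned, and the member apart at 2-fold was Gbp4, at 2.55 and 3.16 in the controls and 6.09 and 4.36 with DNA.

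Class I antigen presentation, which displays peptides to CD8+ T cells, had 6 of 19 genes 2-fold higher in N154S control cells (median 0.89) and 0 apart with DNA (median -0.01, and 0.007 after quantile normalization). Its members lay on both sides of that median. The proteasome subunit Psmb10 differed by -0.74 with DNA, the class I transactivator Nlrc5 by -0.68 and the peptide transporter Tap1 by -0.53. Heavy-chain genes with a gap above 0.9 were higher in N154S. H2-Q5, annotated as a transcribed pseudogene, read 8.01 against 7.10, and H2-K1 10.95 against 9.96. H2-K1 thus lay just outside the 2-fold limit, at 0.99. The shared light chain B2m read 13.04 and 13.15. Genes of the H2 family are similar in sequence, so their probe sets may cross-react.

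A set of genes went past the meeting point. The 21 turned genes all had N154S higher in control cells and hSTING higher with DNA, and 0 genes turned the other way. Their median difference went from 1.52 to -0.81, with a median gain of 3.58 in hSTING and 1.09 in N154S cells. The class rule fixes the order of these gains as well. Cxcl9, another chemokine for T cells, read 5.51 and 7.68 in the controls and 9.72 and 8.45 with DNA, so that N154S went from 4.5-fold higher to 2.41-fold lower. Ifi205 read 8.39 and 9.71, then 11.97 and 10.94. The alarmin Il33 read 4.54 and 6.45, then 9.64 and 8.72, and the checkpoint ligand Cd274 (PD-L1) 5.25 and 6.56, then 9.12 and 8.52. The double-stranded RNA receptor Tlr3 read 7.01 and 8.19, then 10.31 and 9.50. Phf11b, Gbp9, Gm12250 and the pore-forming Mpeg1 had DNA differences of -0.69, -0.58, -0.87 and -0.87. With DNA 20 of the 21 also read higher than without in N154S cells.

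The genes that were apart with DNA and not before included several interferons. The gene for interferon beta, Ifnb1, had control signals of 3.18, 3.21, 2.82 and 4.06 in cells with vector, hSTING, N154S and R284S. With DNA they read 3.18, 8.80, 4.95 and 3.04. The hSTING array stood alone, at 14.4-fold above N154S, and its own gain was at least 20.4-fold against at least 1.39-fold in N154S. Ifna4 read 9.03 in hSTING and 5.37 in N154S cells with DNA, from 4.80 and 5.16. Ifna6 read 7.04 and 3.38, and Ifna1 8.26 and 6.17. Of 17 genes for type I and III interferons, 5 were 2-fold or more lower in N154S with DNA and 0 were higher. In control cells 0 of the 17 were apart. The other 12 were dim or differed by less than 2-fold, and the interferon alpha genes are near-identical copies whose signals cannot be assigned with certainty.

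Several cytokines and chemokines also read highest in hSTING cells with DNA. Tnf read 3.44 and 4.16 in the controls and 7.5 and 5.08 with DNA, 5.35-fold lower in N154S. The monocyte chemokine Ccl12 read 2.18 and 2.53, then 7.31 and 3.35, at least 7.16-fold lower in N154S. Ccl4 read 7.15 and 5.72 with DNA, the neutrophil chemokine Cxcl2 7.42 and 5.75, and the growth factor Csf2 7.75 and 6.36. Il18, the cytokine cut by caspase-1, read 6.27 and 3.72, and Tnfsf18, the ligand of GITR, 7.37 and 4.66. The costimulatory receptor Cd40 read 8.17 and 6.73, and the stress transcription factor Atf3 9.10 and 7.63. Ifit1bl1, an Ifit-like gene, had the largest difference of all, at 7.93 against 3.84. R284S cells with DNA read 2.95 for Ifit1bl1, 3.12 for Ccl12 and 3.61 for Tnf, each lower than in N154S cells.

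The NF-kB and inflammatory list had 0 of 31 genes higher and 4 lower in N154S with DNA, with a median of -0.47 against 0.33 in control cells. Members that met and members that parted stood side by side in it. Tnfaip3, an inhibitor of NF-kB signalling, read 5.67 and 6.99 in the controls and 8.46 and 8.43 with DNA. Il1a read 4.76 and 6.52, then 7.29 and 7.57. By contrast, the inhibitor Nfkbie read 5.06 and 5.23, then 6.82 and 5.74, and Il6 7.48 and 8.36, then 10.5 and 9.71. The chemokine list likewise held both kinds, with 3 of 11 lower in N154S (Ccl12, Ccl4 and Cxcl9) and 6 within 0.5. Those 6 of 11 are a smaller share than the 89.1% of all genes within 0.5.

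Of the 124 genes lower in N154S with DNA, 72 were 2-fold or more higher with DNA than without in hSTING cells, and 57 of those 72 were not so in N154S cells. In 15 both lines passed 2-fold. The background was 445 genes (2.01%) 2-fold higher with DNA in hSTING, 84 (0.379%) in N154S and 33 (0.149%) in vector cells, with 111 (0.5%), 24 (0.108%) and 8 (0.0361%) lower. The 2 lines' own gains share the DNA arrays with the difference, so they describe it and do not add support. The other 52 genes gave a gap without a 2-fold gain in hSTING.

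Of the pathway's own components 15 of 16 lay within 0.5 with DNA, a share near the 89.1% of all genes. The exception was Samhd1, a hydrolase of dNTPs, at 10.24 in hSTING and 9.02 in N154S cells. Tbk1 read 8.30 and 8.19, Irf3 5.70 and 5.53, Cgas 5.88 and 5.63 and the interferon receptor chain Ifnar1 8.90 and 8.73. The mouse Sting1 probe set read 4.22 and 3.81, below the median of the named genes. This probe set is for the mouse gene and does not check the labels. The amount of human STING in each line was not measured here.

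Promoter sequences were set beside these classes, since many converged genes are interferon-stimulated and ISRE motifs are where the interferon-activated factors bind. RefSeq promoters (GRCm38.p6, 250 bases before to 50 after a start) were matched by symbol for 16990 of the 22180 genes, 51 of the 69 converged genes with N154S higher, and 13 of the 21 turned genes. The ISRE core GAAANNGAAA was searched on both strands. It was found in 18 of the 51 converged genes (35.3%) and 5 of the 13 turned genes (38.5%), against 3.9% of all genes. Among the 106 genes lower in N154S with DNA and not before (0.478%) it was found in 11 of 74 (14.9%). Among those that remained apart it was found in 0 of 9 with N154S higher and 0 of 11 with N154S lower. A motif known as the NF-kB consensus was found in 6 of 51 converged genes (11.8%), 7 of 74 parted genes (9.5%) and 5.5% of all genes. A match describes letters and not a bound site.

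**Figure D3:**
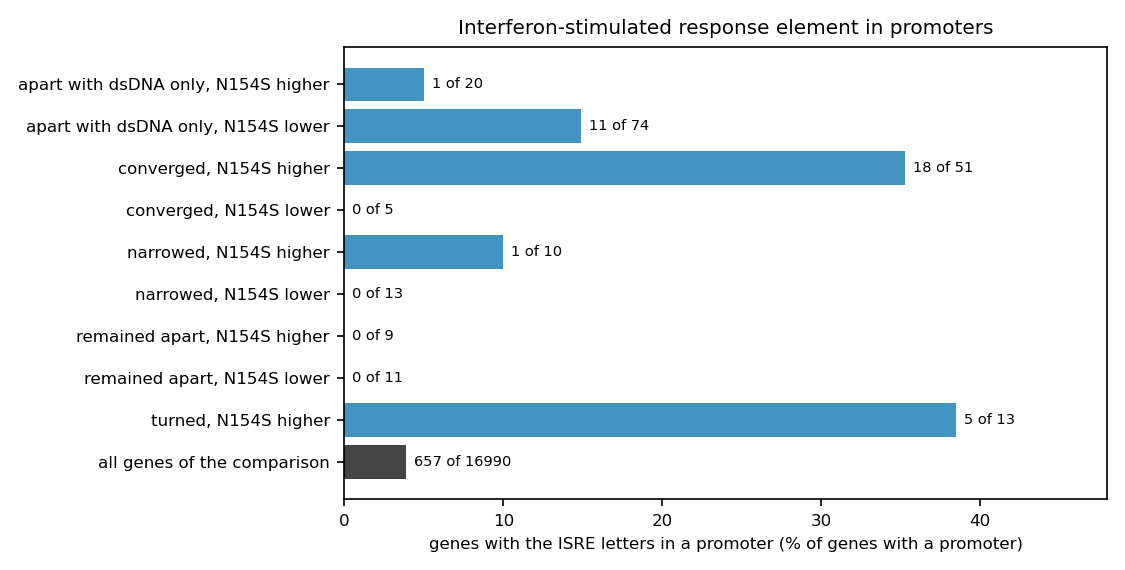
Bars give the percent of genes with the ISRE letters in a RefSeq promoter, with the counts printed beside them, for each class and for all genes with a promoter. The converged and turned genes with N154S higher in control cells reach 35.3% and 38.5%, against 3.9% over all genes.

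The following promoters are examples, chosen after their values and motifs were seen, of genes that parted (Ifnb1 and Ifna4) and genes that met (Cxcl10 and Rsad2). They do not stand for their classes, since the converged genes Acod1, Ifi209, Irf7 and Neurl3 hold no ISRE core in this window and Ifna4 holds 2. Capitals mark the ISRE core or the NF-kB consensus on either strand, and the 2 motifs do not overlap in these sequences. Ifnb1 lies on the minus strand at chr4:88522745-88523044 and holds 1 NF-kB match. Cxcl10, at chr5:92348840-92349139 on the minus strand, holds 1 ISRE core and 2 NF-kB matches. Rsad2, at chr12:26456403-26456702 on the minus strand, holds 1 ISRE core in reverse orientation. Ifna4 lies on the plus strand at chr4:88841566-88841865.
Ifnb1: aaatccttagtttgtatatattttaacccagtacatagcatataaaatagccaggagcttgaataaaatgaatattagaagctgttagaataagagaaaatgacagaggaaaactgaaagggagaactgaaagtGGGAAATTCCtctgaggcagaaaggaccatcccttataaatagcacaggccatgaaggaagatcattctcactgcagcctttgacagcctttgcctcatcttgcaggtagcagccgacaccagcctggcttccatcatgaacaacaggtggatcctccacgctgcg
Cxcl10: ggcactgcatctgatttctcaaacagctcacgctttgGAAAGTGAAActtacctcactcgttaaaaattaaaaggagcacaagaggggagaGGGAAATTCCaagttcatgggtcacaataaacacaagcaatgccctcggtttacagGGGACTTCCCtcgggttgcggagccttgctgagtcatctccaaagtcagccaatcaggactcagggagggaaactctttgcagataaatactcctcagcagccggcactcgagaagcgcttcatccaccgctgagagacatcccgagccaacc
Rsad2: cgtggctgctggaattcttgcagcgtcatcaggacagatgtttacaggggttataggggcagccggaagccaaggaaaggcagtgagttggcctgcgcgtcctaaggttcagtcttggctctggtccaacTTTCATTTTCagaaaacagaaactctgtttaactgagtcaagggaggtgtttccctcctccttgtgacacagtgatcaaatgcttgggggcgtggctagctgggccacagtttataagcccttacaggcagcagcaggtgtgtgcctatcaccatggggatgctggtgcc
Ifna4: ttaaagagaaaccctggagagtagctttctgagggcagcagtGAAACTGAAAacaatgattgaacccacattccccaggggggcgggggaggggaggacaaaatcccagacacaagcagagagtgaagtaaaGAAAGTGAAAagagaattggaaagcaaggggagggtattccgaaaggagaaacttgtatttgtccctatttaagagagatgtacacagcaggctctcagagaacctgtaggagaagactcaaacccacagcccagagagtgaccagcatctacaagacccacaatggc

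Of the genes that remained apart, 11 were higher in N154S (0.0496%) and 13 were lower (0.0586%). None of the 24 was in the interferon-stimulated, GTPase, Ifi200, chemokine, NF-kB, interferon or class I lists. Those lists measure 50, 11, 9, 11, 31, 17 and 19 of the 22180 genes. That is a small share, so absence from them does not set the 24 apart from all genes. The median change with DNA was small in the 24 genes. It was -0.27 in hSTING and -0.32 in N154S cells for the higher genes and -0.27 and -0.37 for the lower genes. Angptl7, a secreted angiopoietin-like protein, read 4.98, 5.05, 6.96 and 6.76 in control vector, hSTING, N154S and R284S cells and 5.24, 5.05, 6.75 and 6.54 with DNA. The mutant lines were high and the vector and hSTING lines low under both treatments. The decoy receptor Il13ra2 read 3.30 and 5.03 in the hSTING and N154S controls and 3.77 and 5.29 with DNA. The steroid-metabolising enzyme Akr1c18 read 6.54 and 8.42, then 6.61 and 8.0. The Wnt agonist Rspo3 read 6.62 and 7.80, then 6.35 and 7.76, and the cornified envelope gene Ivl 4.83 and 6.83, then 5.11 and 6.39. Serpinb9e, a granzyme inhibitor, narrowed most within this class, at 3.74 and 6.58, then 6.20 and 7.24.

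For the growth factor Bmp4 and the peptide hormone Apln the gap was wider with DNA, and the hSTING array read lower with DNA than without. Bmp4 read 7.51 and 8.59 in the controls and 6.12 and 7.82 with DNA. Apln read 5.92 and 7.0, then 4.73 and 6.58. A further 28 genes were higher in N154S with DNA and not before (0.126%), and 3 of them read higher with DNA than without in hSTING cells, against 19 in N154S cells, with a median change of -0.55 in hSTING and 0.16 in N154S cells. The class rule fixes the order of those medians too. Of the 28 genes, Cd24a, a surface glycoprotein, read 8.92 and 9.79, then 7.89 and 9.46. The mesenchymal transcription factor Osr1 read 8.0 and 8.59, then 6.11 and 7.5. The Wnt regulator Dact1 read 6.54 and 6.24, then 4.75 and 5.81. The class II chain H2-Ab1 read 5.91 and 6.83, then 5.62 and 6.66. Its difference was 0.92 in control cells and 1.04 with DNA, so the gap was there before. With DNA 0 of the other 8 class II genes were apart, against 0.735% of all genes. Of the 9 class II genes, 3 reached the array median with DNA in either line. Most of the others were thus too dim to be counted.

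The 13 genes that remained lower in N154S cells included 3 of the matrix list (Col6a3, Egfl6 and Aspn) and 1 of the contractile list (Actg2). The acute-phase protease inhibitor Serpina3n read 6.14 and 4.72 in the controls and 6.33 and 4.36 with DNA, and vector cells read 6.94 and 7.17. Smooth muscle actin Actg2 read 10.54 and 9.11, then 10.00 and 8.74. The collagen Col6a3 read 8.29 and 6.85, then 7.64 and 6.46, the proteoglycan Gpc3 7.58 and 6.56, then 7.74 and 6.38, and the growth factor Tgfb2 6.79 and 5.78, then 6.58 and 5.40. Egfl6 read 8.38 and 7.33, then 8.68 and 7.41. Gzmd, Sprr2k, Prss35, Galnt16 and Aspn had DNA differences of -1.35, -1.30, -1.42, -1.22 and -1.02.

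The collagen and matrix list as a whole kept its difference. Of 32 genes, 27 read lower in N154S in control cells and 26 with DNA, with medians of -0.43 and -0.37. Over all 22180 genes, 10325 read lower in N154S in control cells and 10648 with DNA. With DNA 6 were 2-fold lower (Abi3bp, Egfl6, Dpt, Col6a3, Col6a1 and Aspn) and 0 higher. Col6a2 was just under the limit at -0.98, Col3a1 at -0.91 and Col1a1 at -0.64, while Fn1, Sparc, Bgn and Lox differed by -0.16, -0.16, -0.02 and 0.04. In the contractile list 1 of 15, Actg2, was apart, and 13 of 15 read lower in N154S with DNA as in control cells. The fibroblast markers hold 6 genes of the matrix list, and their lower signals move with it. Whether fewer fibroblasts or less RNA per cell lay behind this cannot be told apart in bulk RNA.

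**Figure D4:**
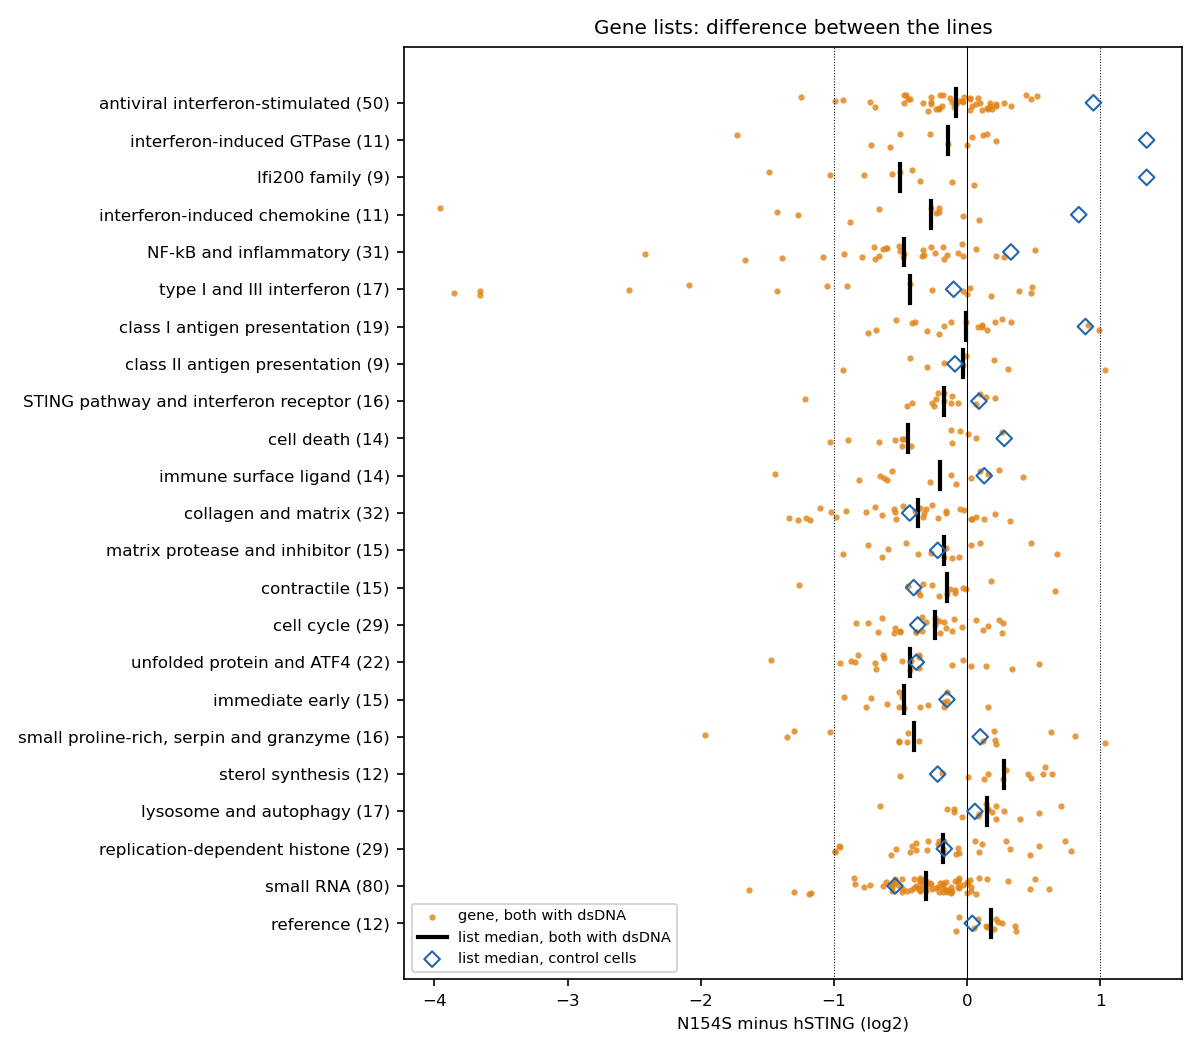
Log2 difference N154S minus hSTING for the members of 23 lists, with the number measured in parentheses. Orange points are genes with dsDNA, black bars their medians and blue diamonds the medians in control cells. The interferon-stimulated, GTPase and Ifi200 medians go from 0.95, 1.35 and 1.35 to -0.08, -0.14 and -0.50, and the matrix median stays, at -0.43 and -0.37.

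In the stress, immediate early, cell cycle, sterol, lysosome and cell death lists at most 1 gene each was apart with DNA. For the counts of genes that read lower in N154S, the background was 10325 of 22180 genes in control cells and 10648 with DNA. Of 22 unfolded protein and ATF4 genes, 18 read lower in N154S with DNA (median -0.43, and -0.38 in control cells), with Atf3 apart and the amino acid transporters Slc7a5 and Slc7a11 at -0.95 and -0.84. The immediate early genes had 14 of 15 lower in N154S in both treatments (medians -0.15 and then -0.47), with 0 past 2-fold and Egr1 lowest at -0.92. The cell cycle list had a median of -0.24 and 0 of 29 apart with DNA, with Ccnb2 at -0.67 from -1.26 in control cells. The sterol synthesis list stood at 0.28 against -0.22 in control cells, with 0 of 12 apart. With DNA 10 of the 12 read lower than without in hSTING cells, 7 in N154S and 1 in vector cells. The same counts were not made over all genes, so whether these differ from the background was not tested. The squalene epoxidase Sqle read 8.05 then 6.83 in hSTING and 7.71 then 7.47 in N154S cells. The lysosome and autophagy list had a median of 0.15 and 0 of 17 apart. In the cell death list 1 of 14 was apart, the BH3-only protein Bcl2l11, at 6.95 in hSTING and 5.92 in N154S cells, while the necroptosis effector Mlkl converged at 10.34 and 9.85.

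Small structural RNAs made up much of what converged from the other side. Of the 16 converged genes with N154S lower in control cells (0.0721%), 9 were small nucleolar RNAs, which guide the modification of ribosomal RNA. Among 80 small RNAs, 15 were 2-fold lower in N154S in control cells and 4 with DNA, with medians of -0.54 and -0.31. The 5S rRNA gene n-R5s136 read 10.05 and 8.08, then 8.90 and 8.59. All 16 read higher in hSTING than in vector control cells, and 0 of the 16 read higher with DNA in hSTING cells. The class rule uses the hSTING control signal, and a high reading there favours both counts, so they add no support. The Y RNA Rny3 stayed apart at 8.44 and 7.27, and Rny1 narrowed to 10.56 and 10.02. Of the 29 histone genes, selected by symbol, 4 were lower in control cells and 0 with DNA, with H1f5 at -1.74 then -0.96.

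The 2-fold limit cut through a continuum. Just inside it with DNA lay Lhx9 and Zfp873 at 1.0, Ckap2l at -1.0 and Spry4 at -1.01. Just outside lay H2-K1 and Igsf11 at 0.99 and Epsti1 and Mir124a-2 at -0.99.

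The test that was run averages both treatments. In a limma fit to all 8 arrays, with construct and treatment as additive terms, 0 genes passed an adjusted p of 0.05 for N154S against hSTING, with 1974 genes at an unadjusted p under 0.05. The 2 genes with adjusted p under 0.1 were Il13ra2, higher by 1.63 (SE 0.12, adjusted p = 0.0709 by limma), and Angptl7, higher by 1.81 (SE 0.15, adjusted p = 0.0777 by limma). When eBayes used a mean-variance trend and robust estimation, 48 genes were higher and 77 lower. The 22 of the 24 genes that remained apart among them add no support, since the fit averages the same differences that chose the class. The residual of this fit holds the unequal DNA effect of the 4 lines, so a gene that converged adds to it. Whether the difference itself changed with DNA was not tested.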

How the data were processed

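RNA from 8 cultures (300 ng each), 1 per construct and treatment, was read on Affymetrix mouse arrays. The deposited values are log2 signals of probe sets, made with Affymetrix Expression Console 1.3.1.187 per the submitters' processing notes. The sources do not name the summarisation algorithm, and the log2 scale was checked from the values. No further normalization was applied. Of 41345 probe sets, 23521 had 1 gene symbol, 1814 several and 16010 none listed. Where a gene had several probe sets (1082 genes), the one with the highest mean was used, leaving 22180 genes.

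Differences are between 2 single arrays and have no test. The limma fit (limma 3.58.1, R 4.3.3, Benjamini-Hochberg over all genes) used all 8 arrays. On simulated data of 22180 genes for N154S minus hSTING it recovered 55 of 100 genes shifted by 1 log2 unit and 91 of 100 shifted by 2, with 6 false calls. The simulated data were strictly additive with independent errors. The lines here had unequal DNA effects, so those figures need not hold for these arrays. The number of arrays limits the precision.

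Named genes were the 15 highest and 15 lowest with DNA, up to 10 per class and direction by size of difference, genes beside the 2-fold limit, list members, a panel of pathway and reference genes, and genes with adjusted p at or under 0.1. The comparison, the classes and the lists were chosen with earlier results of these data known. Fold limits, brightness filter, convergence limit, centring, quantile normalization, averaging of probe sets and gene biotype were varied. A fold against a signal below the array median is given as at least, with the dim signal set at the median.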

Additional observations from a re-analysis of the deposited data

Results flagged for a closer look

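The following 5 genes, bright enough to be counted in both treatments, were 2-fold apart in opposite directions without and with DNA. N154S minus hSTING was 2.17 then -1.27 for Cxcl9, 1.79 then -1.41 for Gm4841, 1.32 then -1.03 for Ifi205, 1.43 then -1.64 for the small nucleolar RNA Snora44, and 1.3 then -1.04 for Sp110, a nuclear body protein. Each value is from 1 array a side, so the change of direction was not tested. Of these, Snora44 differed in kind, at 5.82 and 7.25 in the controls and 7.2 and 5.56 with DNA, so that the N154S array read lower with DNA than without. Sp110 has 3 probe sets, which gave -1.04, -0.56 and -0.46 with DNA. Ifi208, at 2.55 then -1.49, and Mx1, at 1.37 then -1.25, also changed direction, but their control signals were too dim to be counted.

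Probe sets with no listed gene were outside every comparison. There were 16010, and with DNA 166 of them read at least 2-fold above hSTING in N154S cells and 187 below, against 98 higher and 159 lower in control cells.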

How the results depend on the processing

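Counts moved most with the fold and brightness limits. At 1.5-fold, 334 genes were higher and 499 lower in N154S with DNA, 451 converged, 170 remained apart, 63 turned and 624 were apart with DNA and not before. At 3-fold the counts were 4 higher, 21 lower, 27 converged, 9 narrowed, 1 remained apart, 10 turned and 24 apart with DNA and not before. With brightness at the 75th percentile they were 11 higher, 76 lower, 10 turned and 71 apart with DNA and not before, and with no brightness filter 62 were higher. With convergence under 0.25, 47 converged, 60 narrowed and 36 turned, and under 0.75, 16 narrowed and 11 turned. Centring, quantile normalization, mean of probe sets and protein-coding genes kept every count of these classes within 1.5 times. The interferon median with DNA was -0.311 after quantile normalization, and the class I median -0.135 with the mean of probe sets. limma passed 125 genes with a trend and robust variances and 16 among genes at or above the median mean. Leaving out the vector or the R284S arrays passed 0, with 1780 and 1693 genes at an unadjusted p under 0.05. For all these changes the cause was not tested. Of 110 genes named by size, 1 changed sign under centring, quantile normalization or the mean of probe sets, Snord92 at 0.02 and, after centring, -0.01. No paired analysis was possible because each construct and treatment has 1 array. Signals near the array background or near the highest value compress differences.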
